A study of Bos taurus with 8 samples.

Results

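Transcript levels in cattle embryos recovered on day 6 after insemination were ranked from the brightest to the dimmest probe of the EmbryoGENE bovine array. All 8 arrays entered the ranking, each with Holstein RNA in one dye and Jersey RNA in the other, which gave 16 channels. In each channel a probe's signal was its mean spot intensity minus the median local background, read separately for Cy5 and Cy3. Spots ignored at quantification were left out, and the probes whose identifiers start with EMBV3 were ranked within the channel. These are 43794 of the 45220 spots of an array. Ranks are given as percentiles, with 100 for the brightest probe, and were averaged over the 16 channels. Bright, middle and undetected members were chosen by these levels, which are therefore described without a test.

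The Holstein channels number 8, with 4 in Cy5 and 4 in Cy3, and the Jersey channels likewise. The labels describe embryos of Holstein as having good cryotolerance and those of Jersey as performing poorly once frozen. Donors of both breeds were given FSH, 400 mg in all, and 500 µg doses of a prostaglandin analogue towards the end of it, to bring on multiple ovulation. The FSH doses ran from 60 mg at the first to 20 mg at the last. The records of all samples also list follicle aspiration, with a follicle size of 8 mm and a first time of 36 h after aspiration. They were inseminated 12 and 24 h after oestrus with pooled semen, and embryos were flushed from the uterus. The source labels of all samples begin with blast, read here as blastocyst, and end with invivo. The stated design has 4 replicates of each breed with a dye swap. How many embryos or donors stand behind a replicate is not stated in the labels, and p-values then measure only the spread between these arrays, which may be technical. The RNA was amplified by repeated rounds of T7 transcription before labelling.

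At this age a cattle embryo is passing from a compacted ball of cells to a blastocyst, in which an outer epithelium, the trophectoderm, encloses the inner cell mass. Stored maternal messages have largely been cleared by then, and transcripts come from the embryo's own genome. Fast cell division makes heavy demands on protein synthesis and energy supply, and the trophectoderm builds keratin filaments and tight junctions as it seals.

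Ribosomal proteins, actin and its partners, translation factors and mitochondrial subunits held the top of the ranking in both breeds. Genes of muscle, neurons, gut, pancreas, eye and sperm lay mostly near background. The brightest probe carried the gene ACTG1, cytoplasmic gamma actin. Background was set in each channel from its 152 or 153 negative control spots, at 2 SD above their mean. By that measure 15065 probes (34.4%) lay above background in all 16 channels, 24170 (55.2%) in some and 4559 (10.4%) in none. Of the control spots named DarkCorner, a median of 10.8% per channel passed too, so passing in some channels need not mean a transcript. A probe's brightness also depends on its own sequence and its place on the transcript, so the order is one of probe signals, not of molecules per cell.

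The negative control spots averaged 83.8 to 157 intensity units in the Cy5 channels and 154 to 231 in the Cy3 channels. The thresholds that follow from them ran from 117 to 215 in Cy5 and from 167 to 255 in Cy3. The median probe of a Cy5 channel stood at 126 to 209 units, and that of a Cy3 channel at 211 to 297, close to those thresholds. The number of arrays limits the precision of these averages.

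The top 1% of the ranking held 438 probes, with a median signal of 33686 units, 177 times the background threshold. Of these, 277 carried a gene symbol (63.2%), against 49.8% of all probes and 43.0% of the probes above background in no channel. In each channel this 1% took 31.5% to 34.5% of all probe signal in Cy5 and 26.8% to 29.3% in Cy3. In every channel 276 probes were in that channel's own top 1%, and 623 were in it in at least 1 channel. The border fell between PDXK, pyridoxal kinase, at an average percentile of 98.9672 and LOC100298410 at 98.9665. PCNA, the sliding clamp of DNA replication, was 440th at 98.96. Probes on either side of that border did not differ beyond their spread over channels, whose SD was 0.243 percentile points for PDXK and 0.211 for PCNA.

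Each gene with a symbol was represented by its brightest probe, which gave 15216 genes. Of these, 7073 (46.5%) were above background in all 16 channels, 7144 (47.0%) in some and 999 (6.57%) in none. The 438 probes of the top 1% covered 250 genes. Among them, 39 had RPL or RPS symbols, the names of the cytosolic ribosomal proteins. A further 61 were known only by a locus number, and the RefSeq annotation calls 48 of those pseudogenes, 2 transcribed pseudogenes and 11 protein coding. A pseudogene can share sequence with its parent gene, so signal at such a probe may belong to either, and this was not tested.

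The 25 genes of highest rank were, in order, ACTG1, LOC513039, FN1, RPS13, RPS29, RPS2, RPS16, RPS24, TPM4, RPS3, CKB, RPS21, RPL34, LOC507784, SERBP1, LOC614366, IDH1, VAT1, LOC789997, COX5A, LOC785477, GLRX, TPT1, RPS28 and MYL12A. Each was in the top 1% of all 16 channels, and no channel put any of them below a percentile of 99.32. The ribosomal proteins among them numbered 9, counting the small subunit names and RPL34. Their median signals ran from 37100 to 39966 units, so the whole group lay within a narrow band of brightness. In that band 17 of the 25 genes had a spot at the scanner ceiling, the highest value it records, in at least 1 channel.

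ACTG1 (probe EMBV3_35552, chromosome 19) had signals of 37672 to 43009 units in the Holstein channels, with a median of 40165. In the Jersey channels it had 36544 to 42746, with a median of 39578. The ranges of the breeds overlap almost fully, and within a breed the Cy5 channels were the brighter ones. ACTG1 was the brightest probe of 3 channels and stood no lower than 50th in any. Its SD over channels was 0.031 percentile points, the smallest among the 25 genes.

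FN1 (chromosome 2), fibronectin of the extracellular matrix, ran from 36772 to 42104 units in Holstein channels (median 39707) and from 35923 to 41947 in Jersey channels (median 38794). TPM4 (chromosome 7), a tropomyosin that coats actin filaments, had 36232 to 42632 units in Holstein channels (median 39978). In Jersey channels it had 33568 to 42923 (median 38736). TPM4 stood between 2nd and 202nd by channel. Its percentile was 99.9886 to 99.9977 in Cy5 channels and 99.5407 to 99.984 in Cy3 channels, so its lower ranks were all in Cy3. CKB, the creatine kinase of brain and other non-muscle tissue, ranged between 1st and 247th, and IDH1, the NADP-dependent isocitrate dehydrogenase of the cytosol, between 13th and 300th. The lowest single value was 29640 units for CKB, in the Holstein Cy3 channel of array 4, and 26469 for IDH1, in the Jersey Cy3 channel of array 7. Neighbours in the list of 25 therefore did not differ beyond their spread.

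The flatness of the top can be followed down the ranking. The median signal was 39966 units for the 1st probe, 37400 for the 50th (CYCS, cytochrome c), 36814 for the 100th (RPSA) and 34263 for the 200th. It then dropped faster, to 23580 for the 400th (NARS1), 8452 for the 1000th and 1631 for the 4380th, which closes the top 10% of probes. Between 14 and 34 probes of each Cy5 channel reached the scanner ceiling by their median pixel, against 0 or 1 in each Cy3 channel.

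Ribosomal proteins formed the highest list. All 63 measured genes were above background in all 16 channels, 37 were in the top 1% and 61 in the top 10%. The same counts over all 15216 genes were 7073, 250 and 2457. The median gene of the list stood at a percentile of 99.3, against 59.0 over all genes. RPS13 (chromosome 15) led it with 37210 to 42094 units in Holstein channels (median 39047) and 35377 to 42082 in Jersey channels (median 38211). RPS26 (chromosome 5) closed it at a percentile of 71.3, with 196 to 405 units in Holstein channels (median 303) and 271 to 419 in Jersey channels (median 377). Both proteins belong to the small ribosomal subunit. The second RPS26 probe stood at 69.6.

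Translation factors came next, with all 34 above background in all channels, 9 in the top 1% and a median percentile of 98.3. TPT1, the translationally controlled tumour protein, led at 99.84, although its second probe stood at 77.9. EIF4H, which stimulates the helicase that opens messenger RNAs, was lowest at 76.4. Subunits of the respiratory chain were likewise all above background in every channel, 74 of 74, with 15 in the top 1%. COX5A of cytochrome c oxidase had 35853 to 39033 units in Holstein channels (median 37514) and 36581 to 38762 in Jersey channels (median 37403). UQCRH of complex III was the lowest at 65.5.

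Glycolytic genes were more spread. Of 16 measured, 13 were above background in all channels, 3 in some, and the median percentile was 95.5. PGAM1, phosphoglycerate mutase, led at 99.53, beside the glucose transporter SLC2A3 at 99.5. ALDOC, the aldolase best known from brain, was above background in 3 of 16 channels at 20.9. The list therefore held both ends of the scale within a single pathway.

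The remaining housekeeping lists had median percentiles between 92.3 and 97.4. Antioxidant enzymes were all above background in every channel, 17 of 17, with glutaredoxin GLRX highest and superoxide dismutase SOD1 lowest at 86.2. Of 31 RNA-binding and splicing proteins, 30 were above background throughout and SRSF2 led at 99.61. SNRPF, a core protein of spliceosomal particles, was lowest at 69.0 and missed the threshold in 1 channel. Of 28 chaperones, 26 were above background throughout, with the cyclophilin PPIA at 99.81 and the disulphide isomerase PDIA4 at 32.9. Of 30 proteasome genes, 29 were, from PSMD2 at 99.23 to PSMD3 at 62.0. Of 29 cell cycle genes, 26 were, with none in the top 1%. PCNA led that list, and CCND1, cyclin D1, was at 13.2 and above background in 1 channel.

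Among 25 cytoskeletal genes, 23 were above background in all channels and 10 were in the top 1%. Besides ACTG1, TPM4 and MYL12A these included the tubulin TUBA1A, the actin sequestering peptide TMSB10 and the actinin ACTN1. The intermediate filament protein vimentin, VIM, typical of mesenchymal cells, stood at 33.4 and was above background in 7 of 16 channels. TPM1 stood at 22.4 and was above in 3.

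Trophectoderm markers reached higher than those of the other early lineages. Of 30 measured, 21 were above background in all 16 channels (70.0%, against 46.5% of all genes), 9 in some and none was below in all. The median percentile was 85.0, and 6 genes were in the top 1%. KRT8, a keratin of simple epithelia, had 31293 to 41206 units in Holstein channels (median 38427) and 27489 to 43529 in Jersey channels (median 39176). It was the brightest probe of 1 Jersey channel, in Cy5 on array 2, and 282nd in another, in Cy3 on array 5. The ranges of the breeds overlap fully.

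The other 5 in the top 1% were SLC2A3, the transcription factor TFAP2C at 99.5, the tight junction proteins CLDN6 and CLDN4 at 99.2 and 99.0, and KRT18, the keratin partner of KRT8, at 99.1. GATA2 stood at 97.6. CDX2, the factor that defines the lineage, had a median signal of 250 units and a percentile of 61.1, above background in 15 of 16 channels. TEAD4, which acts upstream of CDX2 in the mouse, stood at 61.1 as well, EOMES at 32.1, and ATP1B1, a sodium pump subunit, was lowest at 23.9.

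Secreted proteins of the ruminant trophoblast, which signal pregnancy at later stages, were much lower. Of 29 measured, 6 were above background in all channels, 18 in some and 5 in none, with a median percentile of 35.3 and none in the top 10%. The shares were 20.7% in all channels and 17.2% in none, against 46.5% and 6.57% of all genes. TKDP2, a trophoblast Kunitz domain protein, led with 717 to 2549 units in Holstein channels (median 1455) and 741 to 1801 in Jersey channels (median 1568). IFNT, interferon tau, the signal by which the conceptus maintains pregnancy in ruminants, followed at 86.9 with a median of 1405 units. PAG8, a pregnancy-associated glycoprotein, stood at 84.2. The prolactin-related PRP1 was lowest at 5.94 and above background in no channel. These families hold near-identical members, so a probe may read more than 1 of them.

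Of 27 inner cell mass markers, 14 were above background in all channels, 12 in some and 1 in none. These shares, 51.9% in all channels and 3.70% in none, were near the 46.5% and 6.57% of all genes. The median percentile was 71.6. The histone variant H2AZ1 led at 98.89, just under the top 1%, followed by KLF4 at 98.6 and DPPA3 at 97.8. POU5F1, the pluripotency factor OCT4, had a median of 4863 units and stood at 95.9. NANOG stood at 83.4 with 818 units, and SOX2 at 49.0 with 220 units, above background in 13 of 16 channels. LEFTY2 was the lowest at 15.2. Of these core pluripotency factors, POU5F1 and NANOG were clear of background in every channel and SOX2 was not.

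Primitive endoderm markers had a median percentile of 64.4, with 10 of 23 above background in all channels, 12 in some and 1 in none. These shares, 43.5% in all channels and 4.35% in none, were near the 46.5% and 6.57% of all genes. PDGFRA, the receptor used to mark these cells, had 6849 to 13975 units in Holstein channels (median 9903) and 3897 to 8483 in Jersey channels (median 5252). The ranges overlap between 6849 and 8483, but on each pair of neighbouring arrays all Holstein channels lay above all Jersey ones. Breed differences of single genes were not tested, and no share of all probes separating in this way is given. HNF4A stood at 96.2 and SPARC, a matrix protein, at 93.7. GATA4 was at 86.3 and SOX17 at 43.1, and FOXA2 was above background in no channel at 11.7.

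Of 28 maternal oocyte genes, 5 were above background in all channels, 21 in some and 2 in none, with a median percentile of 45.7. The share in none was 7.14%, against 6.57% of all genes, and the share in all channels 17.9%, against 46.5%. PTTG1, securin, which dividing cells also use, led at 95.4, and the synaptonemal protein SYCP3 stood at 94.6. BMP15, an oocyte growth factor, stood at 48.4 and its partner GDF9 at 16.8, above background in 13 channels and in 1. ZAR1, a factor of the oocyte-to-embryo transition, was lowest at 11.7 and NOBOX stood at 13.8, and these were the 2 genes above background in no channel. Of 7 genome activation genes, 4 were above background in all channels (57.1%, against 46.5% of all genes). That list ran from NFYB at 85.4 to ZSCAN4 at 45.2.

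Imprinted genes covered the whole scale. GNAS, the stimulatory G protein subunit, was in the top 1% at 99.79, while MEST at 2.47 and the deiodinase DIO3 at 1.59 were above background in no channel. Of 19 measured, 5 were above background throughout (26.3%, against 46.5% of all genes) and 12 in some, and the median was 41.8. Lipid droplet genes, of interest because lipid content bears on freezing, had a median of 61.7, with 12 of 27 above background throughout, 14 in some and 1 in none. These shares, 44.4% throughout and 3.70% in none, were near the 46.5% and 6.57% of all genes. SOAT1, which esterifies cholesterol, led with 9813 to 18224 units in Holstein channels (median 15286) and 6631 to 11701 in Jersey channels (median 9681). For SOAT1 too the ranges overlap while each pair of neighbouring arrays had all Holstein channels above all Jersey ones. This was likewise not tested, and the share of all probes that separate so is not given. The droplet coat proteins PLIN2 and PLIN3 stood at 97.8 and 90.6, against 36.8 for PLIN1 and 22.8 for PLIN5. LIPE, hormone-sensitive lipase, was above background in no channel at 11.2.

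Lists for cells that a uterine flush could carry over stood low. Over all genes the median percentile was 59.0, with 46.5% above background throughout. Leukocyte markers had a median percentile of 33.9, with 1 of 26 above background in all channels, the macrophage protein CD68 at 80.0. The erythrocyte list had a median of 44.9 and 3 of 15 above throughout, led by ALAS2, the haem synthesis enzyme of red cells, at 79.5. Cumulus and granulosa genes had a median of 43.5 and 2 of 18 above throughout. Their leader NR5A2, at 93.5, is also a factor of early embryos. For uterine epithelium the median was 38.3, with 2 of 16 above throughout and MEP1B highest at 82.4. For sperm it was 30.3, with 2 of 24, and ZPBP2 highest at 70.4.

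Genes of differentiated tissues had medians of 29.4 to 38.9. For all genes the median was 59.0, with 46.5% above background throughout and 6.57% in none. The lists for eye, pancreas and gut had 1 of 29 above background throughout and 9 in none. PNLIP, pancreatic lipase, was the highest of them at 67.0 and INS, insulin, the lowest at 3.48. Of the 28 striated muscle genes 5 were above throughout, led by TNNI3 at 82.1. The 24 neuron genes had 6, led by SNAP25 at 81.2, and the 24 hepatocyte genes 6, led by complement C3 at 80.6. HOX genes, which pattern the later body axis, had 6 of 24 above throughout and 6 in none, and HOXB4 alone reached the top 10%, at 92.4. HOXB4 had a median of 2276 units, the highest rank in all of these tissue lists.

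The middle of the detected range was taken as the median percentile of the probes above background in all channels, 82.34. The 10 genes nearest to it were FGFR1OP2, GPS2, YIPF6, ROBO2, GPN3, ZNF331, RICTOR, FBXL12, RNF138 and OSGEPL1. Their median signals were 577 to 760 units, 3.36 to 3.80 times the threshold, against 39966 units for ACTG1. RICTOR, the subunit that defines mTOR complex 2, had 637 to 968 units in Holstein channels (median 814) and 385 to 935 in Jersey channels (median 618). GPS2, part of a nuclear corepressor complex, had 384 to 879 units in Holstein channels (median 565) and 679 to 983 in Jersey channels (median 798).

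Among these 10 genes the SD over channels was 1.35 percentile points for RNF138, a ubiquitin ligase, and 8.00 for ROBO2, a guidance receptor. ROBO2 ran from 218 to 2945 units in Holstein channels (median 554) and from 387 to 3031 in Jersey channels (median 693). FGFR1OP2 did similarly, with 340 to 2213 units in Holstein channels and 463 to 2131 in Jersey channels. The choice of probe mattered as well, since other probes of FGFR1OP2, ROBO2, ZNF331 and RICTOR stood at 1.44, 8.99, 10.6 and 13.9.

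The SD of a percentile is bounded near 0 and 100, and at the top also by the scanner ceiling, so it was read within bands and not between them. With the probes cut into 10 equal bands from the dimmest to the brightest, the median SD of a probe's percentile was 6.31, 10.2, 12.0, 12.4, 12.1, 10.7, 7.71, 3.82, 2.29 and 1.00 points. The 6th band had a median signal of 221 units and the 8th one of 392. Of the probes in the 8th, 94.3% were above background in all channels, against 44.1% in the 7th and 6.07% in the 6th. The 4th band ran from percentile 31.3 to 38.8, narrower than its own SD of 12.4 points, so neighbours within it did not differ beyond their spread.

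Probes of the same gene often stood far apart. For the 4034 genes with several probes, the median distance between the highest and the lowest was 32.2 percentile points. It exceeded 50 points in 1121 of them (27.8%) and was under 10 points in 581 (14.4%). Of 95 genes of the top 1% with several probes, 4 had another probe above background in no channel. These were ATP1B3, ATP6V1D, RBMX and ZFAND1, named after their values were seen. ATP1B3, a sodium pump subunit, had 1 probe at 99.76 with 37206 units and others at 9.94 and 6.49. Among the 25 highest genes the second SERBP1 probe stood at 44.7. Several genes that led a list had a distant probe too. The lowest probe stood at 31.6 for SRSF2, 48.2 for PSMD2, 36.5 for NR5A2 and 35.4 for MEP1B. For the leaders PPIA and PTTG1 it stayed close, at 99.6 and 93.4. These leaders were picked after their values were seen.

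The number of probes above background differed between the dyes. The SD of the negative control spots, which enters the threshold, was 12.5 to 29.0 units in Cy5 channels and 6.51 to 12.7 in Cy3 channels. Its part in the difference was not tested. Cy5 channels had 53.4%, 55.1%, 63.0%, 55.1%, 55.1%, 51.5%, 47.9% and 47.9% of probes above background on arrays 1 to 8. The Cy3 channels of the same arrays had 77.5%, 75.7%, 78.3%, 75.8%, 80.7%, 75.5%, 71.3% and 69.4%. Every Cy3 value lay above every Cy5 value. Cy5 minus Cy3 averaged -21.9 ± 3.21 percentage points (SD, n = 8 arrays) and was below 0 on 8 of 8 arrays (exact two-sided sign-flip permutation test, p = 0.0078125, the smallest that 8 arrays allow).

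The breeds were set against each other over the means of neighbouring arrays of opposite orientation, in which the dye cancels. Holstein had 64.5%, 69.4%, 65.3% and 58.6% of probes above background, and Jersey 66.3%, 66.7%, 66.1% and 59.6%. Holstein minus Jersey averaged -0.206 ± 1.99 points (SD, n = 4) and was above 0 in 1 of 4 (exact two-sided sign-flip permutation test, p = 0.875; the smallest p that 4 values allow is 0.13). The difference was smaller than the spread between replicates. Arrays 3 and 4 gave the value above 0, and no direction is given.

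Probes were also counted by the channels in which they passed. Above background in all 8 Holstein channels were 16684 probes, and in all 8 Jersey channels 16688. No probe was above in all 8 channels of either breed and in none of the other. For the dyes, 15241 probes were above in all 8 Cy5 channels and 27466 in all 8 Cy3 channels. Of these, 10 were above in no Cy3 channel and 1350 in no Cy5 channel.

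Rank agreement was high between all channels. Spearman's rho across probes ran from 0.817 to 0.967 over the 120 pairs of channels, with a median of 0.869 (43727 or more probes in each channel). It is given as a description, since probes are not replicates and channels of an array share their spots. Both Cy5, rho was 0.826 to 0.919 (median 0.869, 28 pairs), and both Cy3 it was 0.936 to 0.967 (median 0.949, 28 pairs). Between Cy5 and Cy3 of different arrays it was 0.817 to 0.907 (median 0.857, 56 pairs), and within an array 0.850 to 0.902 (8 pairs).

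The same pairs were split by breed. Both Cy3, the median rho was 0.954 within a breed and 0.948 between breeds. Both Cy5, it was 0.865 within a breed and 0.878 between breeds. Averaged over 8 channels each, the Holstein and Jersey rankings had a rho of 0.984 and shared 395 of their 438 top probes (90.2% of each list). The Cy5 and Cy3 rankings had 0.924 and shared 412 (94.1% of each). More than 10 percentile points separated Holstein from Jersey for 4.19% of probes, and Cy5 from Cy3 for 27.1%.

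For probes above background in all channels, rho was 0.976 between the Holstein and Jersey rankings and 0.985 between the Cy5 and Cy3 rankings. Between the dyes it was 0.650 for probes above in some channels and 0.414 for those above in none. Each of these is over a narrower range of percentiles than the whole ranking. Within the 15065 probes above in all channels, the median rho of Cy3 pairs was 0.959 in the same breed and 0.939 in different breeds. For Cy5 pairs it was 0.935 and 0.923. Across dyes, the pairs with the highest rho were those of the same breed on neighbouring arrays, at 0.965 to 0.982 (8 pairs). Same-breed pairs on other arrays had 0.888 to 0.959 (24 pairs), and pairs of different breeds on other arrays 0.898 to 0.941 (24 pairs). No other pair of channels in different dyes reached 0.965. Channels of neighbouring arrays thus ranked the bright probes most alike when they carried the same breed, whichever dye it was in, and which arrays hold the same RNA is not given in the labels.

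The dye effect of single probes was tested with limma on log2(Cy5/Cy3) over 8 arrays, with the breed orientation as a covariate. The average rank takes both dyes alike, but the share of probes called differed with level. At an adjusted p under 0.05, 5109 of 30937 probes above background in at least 8 channels were called (16.5%), of which 2011 were higher in Cy5 (6.50% of those tested) and 3098 higher in Cy3. That filter passes a probe seen in the 8 channels of 1 dye alone, so it bears on the count. With no filter on dim probes the balance turned, with 4922 higher in Cy5 and 4337 higher in Cy3. In the top 1%, 23 of 438 probes were called (5.25%), 21 of them higher in Cy5, and the median size of the log2 ratio was 0.05. Over the probes above in all channels 1697 of 15065 were called (11.3%). Over the tested probes above in some channels it was 3412 of 15872 (21.5%), with 1030 higher in Cy5 and 2382 higher in Cy3. The part of the scanner ceiling in the count at the top was not tested. Without array 1, 5, 6, 7 or 8 the test called 3116, 2269, 2184, 3252 or 2859 probes, and with neighbouring arrays as a random block 8389.

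Higher in Cy5, the largest dye effects among named genes were at LOC512286, FKBP10, NDRG4, CHD9 and LOC783151, with log2 ratios of 1.03 to 1.21. In that order they were above background in 10, 9, 16, 15 and 8 of 16 channels, so LOC512286, FKBP10 and LOC783151 lay near background. FKBP10, a collagen chaperone of the endoplasmic reticulum, had a log2 ratio of 1.14 ± 0.12 (moderated SE, limma adjusted p = 0.00175) and was higher in Cy5 on 8 of 8 arrays. That ratio is one after normalization. Before it, FKBP10 had 184 units in Cy5 and 181 in Cy3 on array 4, and 346 and 214 on array 1. Its percentile was 49.0 to 76.4 in Cy5 channels (median 67.4) and 2.03 to 28.1 in Cy3 channels (median 8.72). These ranges do not overlap, so the average percentile of 37.9 describes neither dye.

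Higher in Cy3 were NAA35, ABCD4, SLC2A6, CASTOR1 and SYNPO2, with log2 ratios of -1.74 to -1.10. NAA35, a subunit of an acetyltransferase acting on protein N termini, had -1.74 ± 0.10 (moderated SE, limma adjusted p = 0.000247), lower in Cy5 on 8 of 8 arrays. It stood at 69.7 to 78.7 in Cy5 channels (median 73.7) and at 86.6 to 88.5 in Cy3 channels (median 87.5). NAA35, CASTOR1, an arginine sensor of the mTOR pathway, and the others of this group were above background in all 16 channels. Large dye effects were thus not confined to probes near background.

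The lists were also compared between the dyes, and those given here were picked after their values were seen. The median percentile of the cumulus and granulosa list was 38.6 to 58.4 in Cy5 channels and 23.9 to 39.9 in Cy3 channels. The HOX list stood at 28.6 to 42.4 in Cy5 channels and at 17.8 to 33.2 in Cy3 channels. For ribosomal proteins it stayed at 99.2 to 99.4 in Cy5 and 99.3 to 99.5 in Cy3. The Cy5 and Cy3 ranges overlapped in part for the cumulus and granulosa list and for the HOX list. They also overlapped for other dim lists. Leukocyte markers stood at 30.0 to 39.1 in Cy5 and 31.9 to 37.5 in Cy3, and sperm markers at 25.1 to 32.8 in Cy5 and 23.4 to 30.7 in Cy3. Striated muscle genes stood at 33.0 to 49.6 in Cy5 and 43.0 to 47.9 in Cy3. Of the 28 list medians, 3 moved beyond their SD over channels when taken from Cy5 channels only and 1 when taken from Cy3 channels only.

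Among the 345 genes in the top 1% of at least 1 channel, 8 had the largest spread of rank. They were FCGR2B, SEC61B, SLC25A5, IFITM3, WWC1, CIRBP, LOC777594 and RPS6KA1. They were chosen for that spread, so their differences are a description.

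FCGR2B (chromosome 3), an inhibitory Fc receptor of leukocytes, had 37472 and 31367 units in the Holstein channels of arrays 1 and 2. The other 6 Holstein channels had 2024 to 4151. In Jersey channels it had 15602 and 13321 on arrays 1 and 2, 10164 and 8985 on arrays 3 and 4, and 1508 to 5393 on the rest. Arrays 1 and 2 thus held the highest values of both breeds. The summed signal of the 26 leukocyte markers was 4155 and 5832 units in the Holstein channels of arrays 1 and 2. Over all Holstein channels it ran from 4019 to 6679, and over Jersey channels from 4888 to 8320. The dye set much of this range, since no Holstein Cy5 sum exceeded 4880 and no Holstein Cy3 sum fell under 5832. The sums also hold background, as a negative control spot averaged 106 units in the Holstein channel of array 1 and 172 in that of array 2. They therefore cannot show whether leukocytes were present, which was not tested. The second FCGR2B probe stood at 44.4.

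SLC25A5 (chromosome X), an ADP/ATP carrier of mitochondria, had 4552 and 5435 units in the Holstein channels of arrays 3 and 4 and 11994 to 18560 in the other 6. In Jersey channels it had 11397 to 24911. The Holstein channels of arrays 3 and 4, one in each dye, lay below all others. SEC61B, a subunit of the channel that moves proteins into the endoplasmic reticulum, was high on 1 pair of neighbouring arrays in each breed. It had 15337 and 15810 units in Holstein channels of arrays 5 and 6, against 4174 to 9265 in the other Holstein channels. In Jersey it had 14185 and 25590 on arrays 3 and 4, against 4986 to 7115 in the others.

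CIRBP, the cold-inducible RNA-binding protein, had 24927 and 23322 units in the Holstein channels of arrays 3 and 4 and 7137 to 15205 in the rest. In Jersey channels it had 6667 to 10604. WWC1, a Hippo pathway scaffold also called KIBRA, was lowest on arrays 1 and 2 in both breeds, with 5445 and 6565 units in Holstein channels and 7978 and 6969 in Jersey channels. Elsewhere it had 12875 to 24731 units in Holstein and 9126 to 15019 in Jersey. RPS6KA1, a kinase of the ERK pathway, had 6351 to 19068 units in Holstein channels and 6063 to 12259 in Jersey channels. Its Holstein channels on arrays 3 and 4 stood apart from each other, at 11810 units in Cy5 and 19068 in Cy3.

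IFITM3, an antiviral membrane protein, and LOC777594 (chromosome 29) stood lower in the Holstein channels of every pair of arrays. IFITM3 had 5808 to 14104 units in Holstein channels (median 9049) and 11475 to 22418 in Jersey channels (median 16839). LOC777594 had 6711 to 16534 in Holstein channels (median 10204) and 14072 to 26586 in Jersey channels (median 18825). The ranges of the breeds overlap for both genes, but on each pair of neighbouring arrays all Jersey channels lay above all Holstein ones. Both genes were chosen for their spread, and a breed difference was not tested for either. No share of all probes separating in this way is given here either.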

How the data were processed

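The deposited scanner files hold, per the file headers, foreground and background intensity of each spot at the wavelength of each dye, with no background correction or normalization. A further deposited column of the kind other marks ignored spots, and 130 probe spots over the 8 arrays were left out by it. The scanner and its software are not given in the sources used here. The deposited value table was not used. Extraction used a PicoPure kit, amplification T7 polymerase and labelling the ULS dyes, per the labels' protocols.

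Signals, ranks, thresholds and counts were computed in Python 3.11.15 (numpy 2.4.6, pandas 2.3.3, scipy 1.17.1) without normalization between channels, since ranks need none. The probe annotation gave 1 symbol to 21790 probes and none to 22004. Of those with a symbol, 20025 matched RefSeq (ARS-UCD2.0) by symbol, 1524 by synonym and 241 not at all. Dye effects were fitted with limma 3.58.1 in R 4.3.3 after normexp background correction (offset 50) and loess within arrays, with lmFit, eBayes and Benjamini-Hochberg adjustment. Both procedures were tested on simulated data. Arrays of a dye swap share RNA, so the dye tests over 8 arrays speak of these RNAs.

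Which arrays form a dye swap is not given in the labels. In residuals from the orientation means, neighbouring arrays of opposite orientation correlated at 0.46, 0.55, 0.52 and 0.72, and all other combinations at -0.36 to -0.02. The residuals of an orientation cancel over its arrays, so a positive correlation at a combination lowers the others by construction. Their negative values are therefore no further support. The positive combinations were all neighbours, and neighbouring arrays were paired for the comparison of breeds.

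The members and the 28 gene lists were chosen with earlier results of these data known. Genes were named by rule: the 25 highest, the 10 nearest the middle of the detected probes, the highest and lowest of each list, the 8 of largest SD of rank among genes in the top 1% of a channel, and the 5 largest dye effects in each direction. Other list members, the genes at the border of the top 1% and those at set positions were named after their values were seen. Alternatives covered background, foreground, threshold, averaging, channels, slides, arrays left out and the probe per gene.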

Additional observations from a re-analysis of the deposited data

Results flagged for a closer look

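In groups of 8 channels, or of 4 for the percent above background, the highest or lowest value stood apart from the rest in 20 of 266 checks. The nominal rate of the rule is about 1 in 20. Percentiles are bounded, most groups mix the dyes and the checks share channels, so that rate need not hold and the count is a description. Within the Holstein channels, the lowest percentile stood apart for FN1 at 99.9087 (next 99.9657), RPS16 at 99.8128 (next 99.9087), TPM4 at 99.8356 (next 99.9292) and LOC785477 at 99.557 (next 99.8674). The lowest channel median of the ribosomal protein list was 99.1802, with the next at 99.3149. Among dim genes, the highest Holstein percentile stood apart for PRP1 at 25.6 (next 5.61), ZAR1 at 27.0879 (next 13.8), CHAT, the acetylcholine synthesis enzyme, at 15.4925 (next 4.70) and HOXD4 at 19.8047 (next 9.14).

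Within the Jersey channels, the lowest percentile stood apart for IDH1 at 99.3162 (next 99.7009), GLRX at 99.5865 (next 99.8012), KRT8 at 99.3579 (next 99.8561), SNRPF at 33.7969 (next 68.1) and SYNPO2, an actin-binding protein of muscle, at 71.35 (next 84.2). The lowest channel median of the cytoskeleton list was 95.0199 (next 95.762). The highest Jersey percentile stood apart for PRP1 at 15.4918 (next 7.93), FOXA2 at 24.404 (next 12.7), HBM, a globin gene, at 43.5757 (next 20.5), and for the channel median of the imprinted list at 61.0278 (next 50.8). Among the 4 Holstein Cy3 channels, the percent above background was lowest at 69.3657 on array 8, with the next at 75.5.

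Control spots outside the ranking also carried signal. The bright corner spots had a median of 5115 units over channels, those whose names start with (+)E1A 7265.8 and those named DCP 5490.91, against 152 units at the negative control spots. Of the first and second kind 100% of spots were above background in every channel, and of the DCP spots at least 88.9%. Dim controls passed in part, with a median over channels of 10.8% for DarkCorner spots (up to 27.2%). It was 22.3% for ETG spots (up to 43.8%) and 38.8% for (+)eQC spots (up to 82.5%). The negative control spots had 2.62% (up to 5.88%) and the RC spots 2.08% (up to 6.67%). The threshold thus let through a part of some dim controls.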

How the results depend on the processing

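With the median foreground in place of the mean, 97.03% of the top 1% was kept, the median rho between channels was 0.774 and Holstein minus Jersey was 0.0603 points (p = 1.0, exact permutation test). At a threshold of the mean plus 3 SD, 6871 probes were above background in no channel, and at the 95th percentile of the negative controls Holstein minus Jersey was 0.142 points. The median rank kept 97.5% of the top 1%. From Cy5 channels alone, 10014 probes were above background in none and 96.6% of the top 1% was kept. From Cy3 channels alone, 27466 were above in all, 97.5% was kept and the median rho was 0.949. Holstein channels alone kept 95.4%, Jersey channels alone 94.7%, slide 1 97.5% and slide 2 95.7%. Cy5 minus Cy3 was -20.2 points on slide 1 and -23.6 on slide 2 (exact permutation p = 0.13 in each, the smallest that 4 arrays allow). Leaving out 1 array at a time gave 15151 to 15625 probes above background in all channels, 4622 to 5121 in none, 98.6% to 99.3% of the top 1% kept, a median rho of 0.864 to 0.874, Cy5 minus Cy3 of -22.8 to -21.4 points and Holstein minus Jersey of -1.18 to 0.321 points. The last was also above 0 without arrays 7 or 8, at 0.0439.

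The dye test called 9259 probes with no filter on dim probes (4922 higher in Cy5 and 4337 in Cy3, against 2011 and 3098 as reported), 8389 with neighbouring arrays as a random replicate block (consensus correlation -0.317), 1186 at an adjusted p under 0.01 and 2184 to 4871 without 1 array, the fewest without array 6. Among 103 named genes the percentile moved beyond its SD for 35 with the lowest probe of a gene, 32 with the median probe, 12 with the median foreground and 2 after quantile normalization, and for 0 under each of the other settings. Of the 28 list medians, 20 moved beyond their SD with the lowest probe, 15 with the median probe, 5 with Holstein channels only, 3 each with Cy5 channels and slide 2 only, 2 with the median foreground and 1 each with Cy3 channels only, slide 1 only and quantile normalization. With the lowest probe of each gene, the median fell to 71.2 for glycolysis, 38.3 for lipid droplets and 40.5 for primitive endoderm. The cause was not tested. The saturated top and the probes near background limit how finely the order can be read.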
